A study of Rattus norvegicus with 9 samples.

Results

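The collagen genes on a whole-genome rat array were followed across 3 dietary dose groups. A member was any probe set annotated with exactly 1 gene symbol made of Col, a number, the letter a and a number. The rule gave 58 probe sets for 41 genes, of 31042 probe sets in all, 20826 of which carried exactly 1 symbol. The fibrillar class held 19 probe sets (11 genes), the basement membrane class 7 (5 genes), the beaded filament class 7 (5 genes), the network class 3 (3 genes) and a mixed class of other collagens 22 (17 genes). Of the 58 probe sets, 46 (35 genes) were bright enough to be tested, and the 12 that were not tested are described by their values.

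The study profiled the cerebral cortex of Hsd:Sprague Dawley SD rat pups at postnatal day 4 after exposure to 4-methylimidazole (4-MeI), a small heterocyclic compound found in caramel colouring. Parents of the first generation ate feed with 0, 750 or 2500 ppm of the compound from before mating and through successive litters, and the pups came from the second generation (the F2b litters). Control pups descended from animals on the 0 ppm diet of the same study, and all 3 groups shared strain, age and tissue. Each group had 3 arrays, described as biological replicates. Per the labels' protocols, 1 pup was taken from each F2b litter and more pups were selected than were put on arrays. The labels do not give the litter behind each array, the sex of the pups, the array batch or which dams had seizures, a word in the title of the study. The p-values therefore measure the spread between pups with these variables mixed in.

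Collagens are proteins of the extracellular matrix in which 3 chains wind into a triple helix. Fibrillar collagens build cables, type IV collagen builds the sheet-like basement membrane under endothelium and at the brain surface, type VI forms beaded filaments, and type VIII forms hexagonal networks in vessel walls and under some endothelia. In brain, fibrillar collagens are made chiefly by fibroblasts of the meninges and of larger vessels, while type IV comes from endothelial cells, pericytes and meningeal cells, and a few transmembrane collagens are made by neurons.

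Array medians lay between 7.66 and 7.70 on the log2 scale, which the deposited normalization sets. In a principal component analysis of all tested probe sets, control replicate 3 and 750 ppm replicate 3 stood apart from the other arrays of their groups. The first component, with 35.6% of the variance, placed them at -25.2 and 14.98. The other controls lay at -8.64 and -9.47, and the other 750 ppm arrays at -5.97 and -11.3. The 2500 ppm arrays lay at 18.8, 10.3 and 16.4, so 750 ppm replicate 3 fell within their range on this component. Transcripts that define cortical excitatory neurons were present, and the mean level of 9 of them stayed between -0.13 and 0.12 log2 units of the mean of all arrays. Against control, 5 of the 9 were higher and 4 lower at 2500 ppm, and 2 higher and 7 lower at 750 ppm. Of all probe sets, 56.4% were higher at 2500 ppm and 48.7% at 750 ppm. Tbr1, a deep-layer transcription factor, was the 1 marker of these below the brightness filter, at 5.96.

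Across all 58 collagen probe sets, most were higher in both dosed groups than in controls. At 2500 ppm, 46 of 58 had a log2 change above 0, against 56.4% of all 31042 probe sets, and the median change was 0.23 against 0.019. At 750 ppm, 42 of 58 were above 0, against 48.7%, and the median was 0.22 against -0.0034. The 3 dosed arrays all lay above the 3 control arrays for 24 of the 58 at 2500 ppm, where 9.59% of all probe sets did so, and for 26 of the 58 at 750 ppm, where 6.39% did so. They all lay below controls for 1 of the 58 at each dose, where 10.9% and 5.96% of all probe sets did. Both comparisons use the same 3 control arrays, so the likeness of the 2 doses is not an independent repeat. In bulk tissue, more cells of a type and more RNA per cell cannot be told apart.

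**Figure D1:**
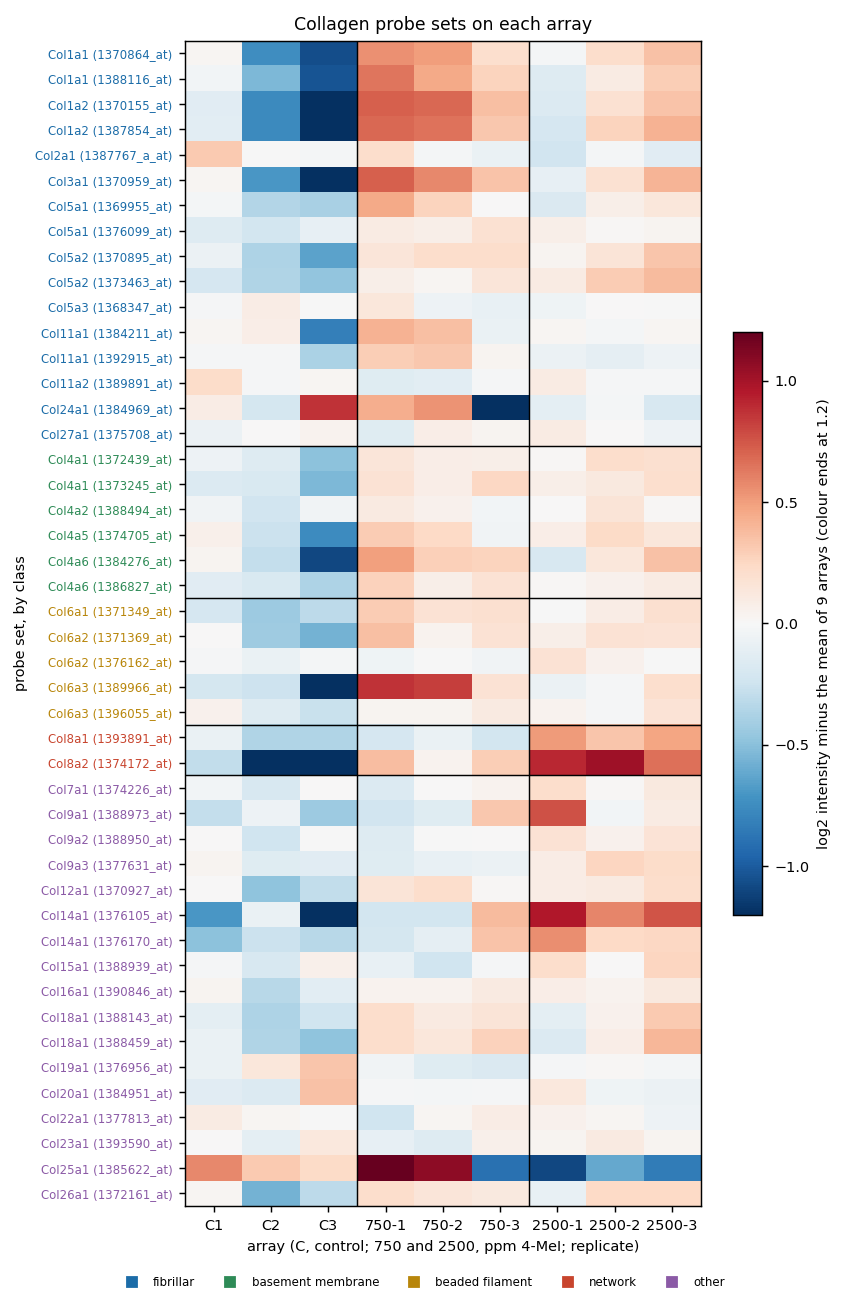
Log2 level of each of the 46 tested collagen probe sets (rows, by class) in each of the 9 arrays (columns, by dose and replicate), minus the mean of that probe set over all arrays, with the colour scale ending at 1.2 log2 units. Control replicates 2 and 3 are low in most rows, control replicate 1 is nearer to the dosed arrays, and Col25a1 is low in 2500 ppm arrays and in 750 ppm replicate 3.

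The control arrays were themselves spread. The mean of the tested collagen probe sets, each set to its mean over the arrays, was -0.052, -0.26 and -0.41 in control replicates 1, 2 and 3. At 750 ppm the 3 pups gave 0.19, 0.15 and 0.056, and at 2500 ppm they gave 0.057, 0.11 and 0.16. All dosed arrays lay above all controls, but the gap from control replicate 1 to the nearest dosed array was smaller than the distance among the controls.

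Few single probe sets passed the test, which was limma's moderated test with Benjamini-Hochberg adjustment over 21729 probe sets. Against control, 3 of 46 tested collagen probe sets rose at 2500 ppm (Col8a1, Col8a2 and 1 of the Col5a2 probe sets), where 0.281% of all tested probe sets rose and 0.405% fell. At 750 ppm 0 of 46 passed, where 0% of all tested probe sets rose and 0.00920% fell. Between the doses 1 of 46 passed (Col8a1, higher at 2500 ppm), where 0.152% were higher and 0.170% lower. Before adjustment, at p under 0.05, limma gave 27 collagen probe sets at 2500 ppm (26 higher, 1 lower; 6.89% and 9.12% of all tested), 27 at 750 ppm (26 higher, 1 lower; 5.77% and 4.37%) and 7 between doses (5 higher, 2 lower; 5.25% and 7.33%). Weighting the arrays by quality gave 10, 5 and 4 adjusted calls instead of 3, 0 and 1, while the share of all tested probe sets called went to 6.88%, 1.56% and 3.32%.

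The network class held the members with the clearest change. Col8a1 and Col8a2 encode the chains of type VIII collagen. Col8a1 (probe set 1393891_at) lies at chr11:56245998-56378586 and Col8a2 (1374172_at) at chr5:143870754-143897372 in GRCr8. The 250 bases before the transcript start used in the RefSeq promoter table are shown for each because these genes passed the test. Capitals mark every match to GGGCGG, the core of the GC box bound by Sp-family factors, on either strand.

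Col8a1, chr11:56246532-56246781, plus strand: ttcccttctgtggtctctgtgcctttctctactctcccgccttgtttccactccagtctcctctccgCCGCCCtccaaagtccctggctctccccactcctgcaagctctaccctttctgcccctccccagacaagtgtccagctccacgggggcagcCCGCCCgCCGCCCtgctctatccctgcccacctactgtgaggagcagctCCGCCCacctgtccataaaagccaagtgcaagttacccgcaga

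Col8a2, chr5:143870519-143870768, plus strand: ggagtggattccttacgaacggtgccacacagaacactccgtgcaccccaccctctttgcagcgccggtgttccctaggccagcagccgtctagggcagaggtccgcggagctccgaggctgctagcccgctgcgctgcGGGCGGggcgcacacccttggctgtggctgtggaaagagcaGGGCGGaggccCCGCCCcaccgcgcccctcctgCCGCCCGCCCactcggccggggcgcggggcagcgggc

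The Col8a1 window lies inside the annotated span of its gene, and the end of the Col8a2 window overlaps the start of the annotated span. The Col8a1 window held 4 matches at a GC content of 62.0%. The Col8a2 window held 5 matches, the last 2 of which overlap, at a GC content of 73.2%. GGGCGG was present in 30.5% of 33469 such rat windows and in 19 of 35 windows of collagen genes. Both strands were also searched for CCAAT, found in 34.0% of all windows and 10 of the collagen windows. The TATA box core TATAAA was in 12.9% of all windows and 4 of the collagen windows, and the AP-1 site TGANTCA in 6.3% and 1. Neither type VIII window held these. A match is only a string of letters, and a missing one says nothing of the factor.

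Col8a1 read 7.00, 6.72 and 6.72 in the controls, 6.89, 7.00 and 6.86 at 750 ppm, and 7.60, 7.42 and 7.56 at 2500 ppm. Every 2500 ppm array lay above every other array, while the 750 ppm and control arrays overlapped. Col8a1 rose by 0.71 log2 units (SE 0.091, n = 3 and 3, 1.63-fold) from control to 2500 ppm, with an adjusted p of 0.0201 by limma. It rose by 0.61 (SE 0.091, 1.52-fold) from 750 to 2500 ppm, with an adjusted p of 0.0373. From control to 750 ppm the difference was 0.10, with a 95% interval of -0.10 to 0.31 and an adjusted p of 0.710. The call against control held in 4 of the 9 fits that left out 1 array. It was lost without control replicate 2 (adjusted p = 0.0728), control replicate 3 (0.0557) or 2500 ppm replicate 1, 2 or 3 (0.0761, 0.0648 and 0.0584), with changes from 0.66 to 0.80 in all 9 fits. The call between doses held in 3 of 9 fits. It was lost without control replicate 2 (0.0573), 750 ppm replicate 1 or 2 (0.115 and 0.0888) or 2500 ppm replicate 1, 2 or 3 (0.135, 0.102 and 0.114).

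Col8a2 read 7.85, 6.95 and 6.34 in the controls, 8.52, 8.19 and 8.44 at 750 ppm, and 9.05, 9.16 and 8.81 at 2500 ppm. The 3 groups did not overlap, and the controls were the most spread (SD 0.76, against 0.17 and 0.18). Col8a2 rose by 1.96 (SE 0.31, 3.89-fold, 95% interval 1.26 to 2.65) at 2500 ppm, with an adjusted p of 0.0317 by limma. It was the largest log2 change of any collagen probe set in the 3 comparisons. The difference at 750 ppm was 1.33 (SE 0.31, adjusted p = 0.203), and between doses 0.62 (95% interval -0.071 to 1.32, adjusted p = 0.446). The 2500 ppm call held in 4 of the 9 fits that left out 1 array. It was lost without control replicate 2 (0.109) or 3 (0.0557, change 1.60) or 2500 ppm replicate 1, 2 or 3 (0.112, 0.116 and 0.0851), with changes from 1.60 to 2.36. The 750 ppm difference passed in 1 of these 9 fits, without control replicate 1 (1.74, adjusted p = 0.0310). Col10a1, the network collagen of growth-plate cartilage, was under the brightness filter and read 5.62 to 7.33 over the 9 arrays, the highest in control replicate 1.

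Markers of choroid plexus, the epithelium that secretes cerebrospinal fluid, were also highest at 2500 ppm. The mean of 9 such markers ran from -0.67 to -0.48 in controls and from -0.38 to -0.25 at 750 ppm, and was 1.34, 1.08 and 0.24 in 2500 ppm replicates 1, 2 and 3. Of the 9, 6 passed the brightness filter. At 750 ppm the median change of these markers from control was 0.025, while their mean was -0.33 against -0.56 in controls. Among the 2500 ppm arrays, the markers and Col8a2 were lowest in replicate 3 and Col8a1 in replicate 2. The part of these markers in the type VIII differences was not tested.

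**Figure D2:**
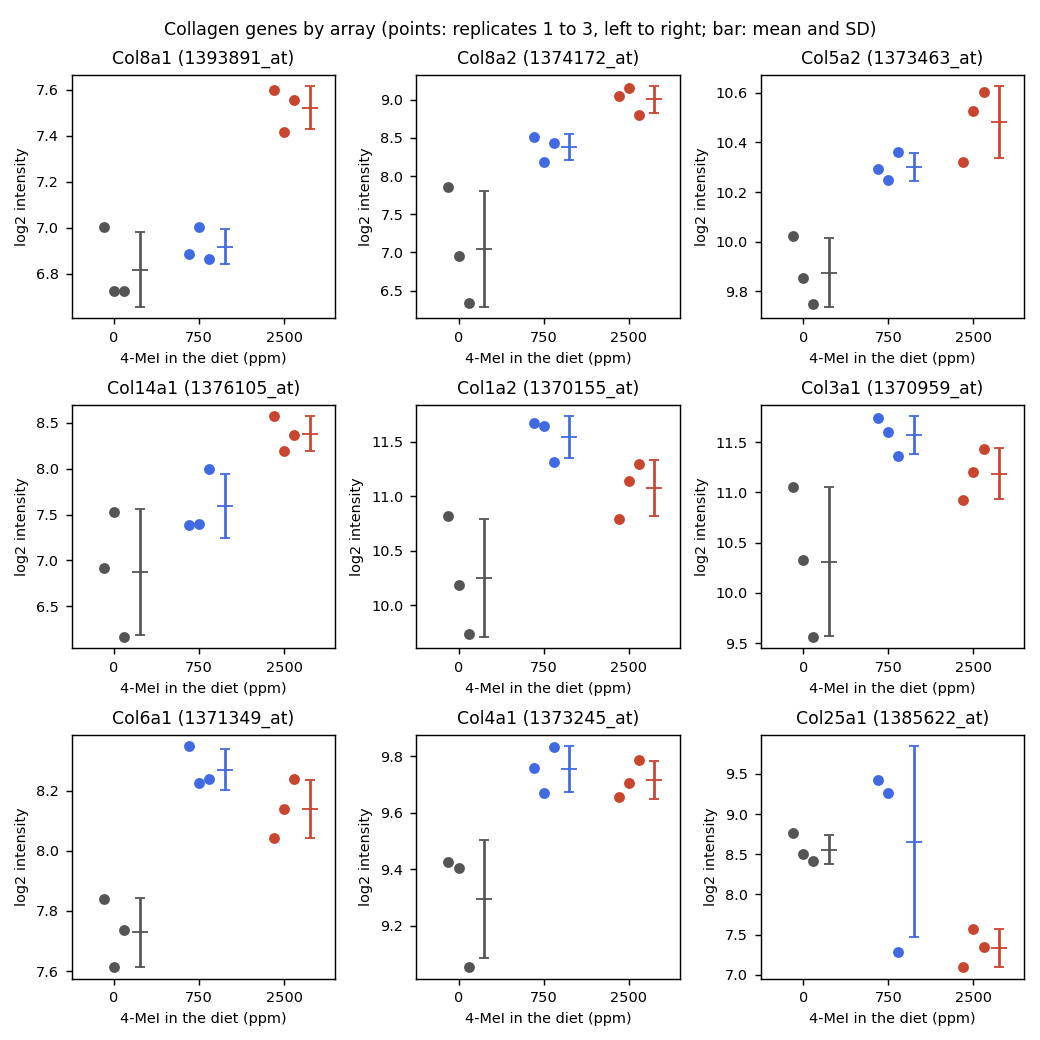
Log2 level of 9 collagen probe sets in each array, 1 panel per gene, with points for the 3 pups of each dose and a bar for the group mean and its SD. Col8a1 stands higher only at 2500 ppm, and the 3 groups of Col8a2 do not overlap. All controls lie below all dosed arrays in Col6a1 and Col4a1. In Col1a2 and Col3a1 the lowest array is a control, but control replicate 1 lies above 2500 ppm replicate 1.

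In the fibrillar class, 1 probe set passed the test, a Col5a2 probe set that rose at 2500 ppm. Of the 19 probe sets, 14 were above 0 at 2500 ppm and 13 at 750 ppm, where 56.4% and 48.7% of all probe sets were. Arrays did not overlap, with the dosed group higher, for 3 of 19 at 2500 ppm, where 9.59% of all probe sets did so, and for 10 of 19 at 750 ppm, where 6.39% did so. Col5a2, the regulatory alpha-2 chain of type V collagen that nucleates type I fibrils, lies at chr9:54940768-55090151 on the minus strand. The 250 bases before its start are shown beside the type VIII windows because it too passed the test.

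Col5a2, chr9:55090152-55090401, minus strand: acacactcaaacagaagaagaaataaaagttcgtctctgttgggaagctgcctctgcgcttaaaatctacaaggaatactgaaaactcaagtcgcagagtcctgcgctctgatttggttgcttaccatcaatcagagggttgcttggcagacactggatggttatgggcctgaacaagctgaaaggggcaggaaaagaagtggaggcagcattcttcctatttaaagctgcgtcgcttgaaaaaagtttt

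This window held none of the 4 motifs and had a GC content of 44.8%.

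Col5a2 probe set 1373463_at read 10.02, 9.86 and 9.75 in the controls, 10.29, 10.25 and 10.36 at 750 ppm, and 10.32, 10.53 and 10.60 at 2500 ppm. All dosed arrays were above all controls, and the dosed groups overlapped. It rose by 0.61 (SE 0.093, 1.52-fold, adjusted p = 0.0295 by limma) at 2500 ppm, and differed by 0.43 (adjusted p = 0.201) at 750 ppm. The second Col5a2 probe set read 9.86, 9.56 and 9.30, then 10.08, 10.15 and 10.14, then 9.97, 10.09 and 10.27, with differences of 0.54 (adjusted p = 0.0989) and 0.55 (0.214). Both probe sets were higher in all dosed arrays. The 2500 ppm call of the former held in 5 of the 9 fits that left out 1 array, and was lost without control replicate 2 (0.0992) or 3 (0.0723) or 2500 ppm replicate 2 or 3 (0.108 and 0.0890).

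Col1a1 and Col1a2 encode the chains of type I collagen, the chief fibril of meninges, bone and skin. Col1a2 probe set 1370155_at read 10.82, 10.19 and 9.74 in controls, 11.67, 11.64 and 11.32 at 750 ppm, and 10.79, 11.14 and 11.30 at 2500 ppm. The 750 ppm arrays were above all others, and the lowest 2500 ppm array lay under control replicate 1. The differences from control were 1.29 (SE 0.24, adjusted p = 0.201 by limma) at 750 ppm and 0.83 (SE 0.24, 0.150) at 2500 ppm. The second Col1a2 probe set gave 1.27 and 0.88. Col1a1 read 9.64, 8.88 and 8.56, then 10.17, 10.12 and 9.83, then 9.60, 9.83 and 9.97, with differences of 1.02 (0.209) and 0.77 (0.166); its other probe set read 7.42, 6.92 and 6.42, then 8.10, 7.91 and 7.72, then 7.30, 7.56 and 7.75, with 0.99 (0.201) and 0.61 (0.229). All 4 type I differences from control were larger at 750 ppm, though none passed between doses, and control replicate 1 overlapped the 2500 ppm arrays. Leaving out control replicate 1 brought both probe sets of Col1a2 (1.58 and 1.57) and Col1a1 1370864_at (1.32) past the threshold at 750 ppm, with adjusted p of 0.0310, 0.0427 and 0.0310. It also brought Col1a2 1370155_at (1.11, adjusted p = 0.0460) and Col1a1 1370864_at (1.08, 0.0306) past it at 2500 ppm. Control replicate 1 was the highest control for both genes, and each of these calls held in only 1 of the 9 fits that left out 1 array. In other fits the adjusted p by limma for Col1a1 1370864_at reached 0.681 at 750 ppm and 0.388 at 2500 ppm.

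Col3a1, the fibril partner of type I in soft tissue, read 11.05, 10.33 and 9.56 in controls, 11.74, 11.60 and 11.37 at 750 ppm, and 10.92, 11.21 and 11.43 at 2500 ppm. The highest control overlapped the lowest 2500 ppm array, and the 750 ppm arrays were above the controls. Its differences were 1.26 (adjusted p = 0.223) and 0.88 (0.214) by limma. The first passed in 1 of the 9 fits that left out 1 array, without control replicate 1 (1.63, adjusted p = 0.0481). Col5a1, the main chain of type V, gave 0.27 (adjusted p = 0.201) at 750 ppm and 0.19 (0.155) at 2500 ppm with probe set 1376099_at, which read 8.44, 8.38 and 8.50, then 8.70, 8.67 and 8.78, then 8.66, 8.61 and 8.62. Its other probe set read 8.27, 7.94 and 7.90, then 8.74, 8.56 and 8.30, then 8.12, 8.37 and 8.43, with differences of 0.50 (0.260) and 0.27 (0.382). The dosed arrays were above the controls with the former, and with the latter the 2500 ppm arrays overlapped them.

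The mean of meningeal fibroblast markers was lower in every control than in every dosed array. Their mean over 17 genes was -0.14, -0.51 and -0.88 in controls, 0.39, 0.25 and 0.25 at 750 ppm, and 0.058, 0.23 and 0.33 at 2500 ppm. The controls stood in the same order as for types I and III, with replicate 3 lowest, and the dosed groups overlapped. This control order was not particular to them. The basement membrane class gave -0.052, -0.21 and -0.55 in the controls, the beaded filament class -0.075, -0.27 and -0.54, and endothelial markers -0.076, -0.19 and -0.54. The part of the meningeal markers in the fibrillar differences was not tested.

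Between doses, 33 of the 58 collagen probe sets were above 0 at 2500 against 750 ppm, where 54.9% of all probe sets were. The 2500 ppm arrays all lay above the 750 ppm arrays for 7 of 58, where 8.35% of all probe sets did, 2 of them in the network class, 5 among the other collagens and 0 in the rest. Of 19 fibrillar probe sets, 5 were above 0, with a median of -0.082 against 0.014 for all probe sets. In 3 of 58, all fibrillar, the 2500 ppm arrays all lay below the 750 ppm arrays, where 7.38% of all probe sets did. These were Col1a2 1370155_at (-0.47, 95% interval -1.02 to 0.082), Col5a1 1376099_at and 1 of 3 Col11a1 probe sets (-0.30). Col11a1, which starts fibrils in cartilage, read there 7.33, 7.34 and 6.96 in controls, 7.64, 7.67 and 7.38 at 750 ppm and 7.28, 7.24 and 7.28 at 2500 ppm. None of the fibrillar differences between doses passed the test, and limma's lowest adjusted p among the 3 was 0.333. Among fibrillar members Col24a1 gave the widest range within a group, at 8.07, 8.17 and 6.24 in the 750 ppm arrays against 7.72, 7.42 and 8.50 in controls. Col5a3, Col11a2, Col27a1 and the tested Col2a1 probe set, cartilage and minor fibril chains, differed from control by -0.22 to 0.020 at both doses, and the groups overlapped. The untested Col2a1 and Col11a1 probe sets read between 3.72 and 6.18.

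The basement membrane class was above 0 in 7 of 7 probe sets at each dose, where 56.4% (2500 ppm) and 48.7% (750 ppm) of all probe sets were. The dosed arrays all lay above controls for 5 of 7 at each dose, where 9.59% and 6.39% of all probe sets did so. None passed the adjusted test. Col4a1 and Col4a2 form the trimer common to nearly all basement membranes, and they lie head to head on chromosome 16, with 76 bases between their starts. This stretch is printed because the pair shares it as its upstream region.

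Region between Col4a2 and Col4a1, chr16:84885521-84885596, plus strand: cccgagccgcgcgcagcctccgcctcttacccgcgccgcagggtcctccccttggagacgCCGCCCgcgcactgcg

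It held 1 GGGCGG match, and its GC content was 78.9%. Col4a1 probe set 1373245_at read 9.42, 9.41 and 9.05 in controls, 9.76, 9.67 and 9.83 at 750 ppm, and 9.66, 9.70 and 9.79 at 2500 ppm. All dosed arrays were above all controls, with differences of 0.46 (adjusted p = 0.201 by limma) and 0.42 (0.0966). The other Col4a1 probe set read 9.36, 9.27 and 8.92, then 9.56, 9.50 and 9.49, then 9.44, 9.63 and 9.61. Col4a2 read 9.36, 9.17 and 9.36, then 9.51, 9.46 and 9.37, then 9.41, 9.55 and 9.42, with differences of 0.15 (0.543) and 0.16 (0.332). Col4a1 was higher in all dosed arrays with both probe sets, and Col4a2 by smaller amounts, with its dosed arrays just above its controls.

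Col4a5 and Col4a6 form a second trimer of specialised basement membranes and also lie head to head, on the X chromosome with 1263 bases between the genes. Col4a5 read 10.35, 10.04 and 9.54, then 10.60, 10.54 and 10.26, then 10.38, 10.53 and 10.43, with differences of 0.49 at 750 ppm and 0.47 (adjusted p = 0.246) at 2500 ppm. Col4a6 probe set 1386827_at read 6.84, 6.79 and 6.60, then 7.25, 7.04 and 7.14, then 6.98, 7.02 and 7.07, with differences of 0.41 (0.201) and 0.28 (0.138). Its other probe set read 6.91, 6.59 and 5.78, then 7.37, 7.16 and 7.15, then 6.68, 7.01 and 7.23, with 0.80 at 750 ppm. All of these were lowest in control replicate 3. Col4a4, of the kidney and cochlear basement membrane, was under the filter at 4.94 to 5.33.

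The beaded filament class was above 0 at both doses for 6 of 7 probe sets, where 56.4% (2500 ppm) and 48.7% (750 ppm) of all probe sets were. The dosed arrays all lay above controls for 4 of 7 at 2500 ppm and 3 of 7 at 750 ppm, where 9.59% and 6.39% did so. Col6a1, a chain shared by all type VI trimers, read 7.84, 7.61 and 7.74 in controls, 8.35, 8.22 and 8.24 at 750 ppm, and 8.04, 8.14 and 8.24 at 2500 ppm. All dosed arrays were above all controls. The differences were 0.54 (SE 0.079, adjusted p = 0.201 by limma) at 750 ppm and 0.41 (SE 0.079, 0.0577) at 2500 ppm. A second quantile normalization brought the latter past the threshold (0.42, 0.0460).

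Col6a2 probe set 1371369_at read 6.76, 6.33 and 6.19, then 7.12, 6.79 and 6.93, then 6.82, 6.92 and 6.92, with differences of 0.52 (0.253) and 0.46 (0.157). Its second probe set read 6.34, 6.28 and 6.33, then 6.30, 6.35 and 6.31, then 6.53, 6.41 and 6.35. The 2 Col6a2 probe sets disagree at 750 ppm, since the second showed overlapping groups. Col6a3, the largest type VI chain, read 8.87, 8.83 and 7.55, then 9.95, 9.91 and 9.26, then 9.01, 9.07 and 9.28, with differences of 1.29 (0.231) and 0.70 (0.336). Its second probe set read 6.57, 6.37 and 6.26, then 6.56, 6.56 and 6.63, then 6.56, 6.51 and 6.69. Both probe sets were lowest in control replicate 3, but the former was highest in 750 ppm replicates 1 and 2 and the latter in 2500 ppm replicate 3, with overlapping groups. Col6a5 and Col6a6, alternative type VI chains under the filter, read 5.92 to 6.41 and 5.38 to 5.59. Without control replicate 3 and 750 ppm replicate 3 together, an analysis chosen after the data were seen, Col6a3 was the 1 collagen past the threshold at 750 ppm (1.08, adjusted p = 0.0135).

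**Figure D3:**
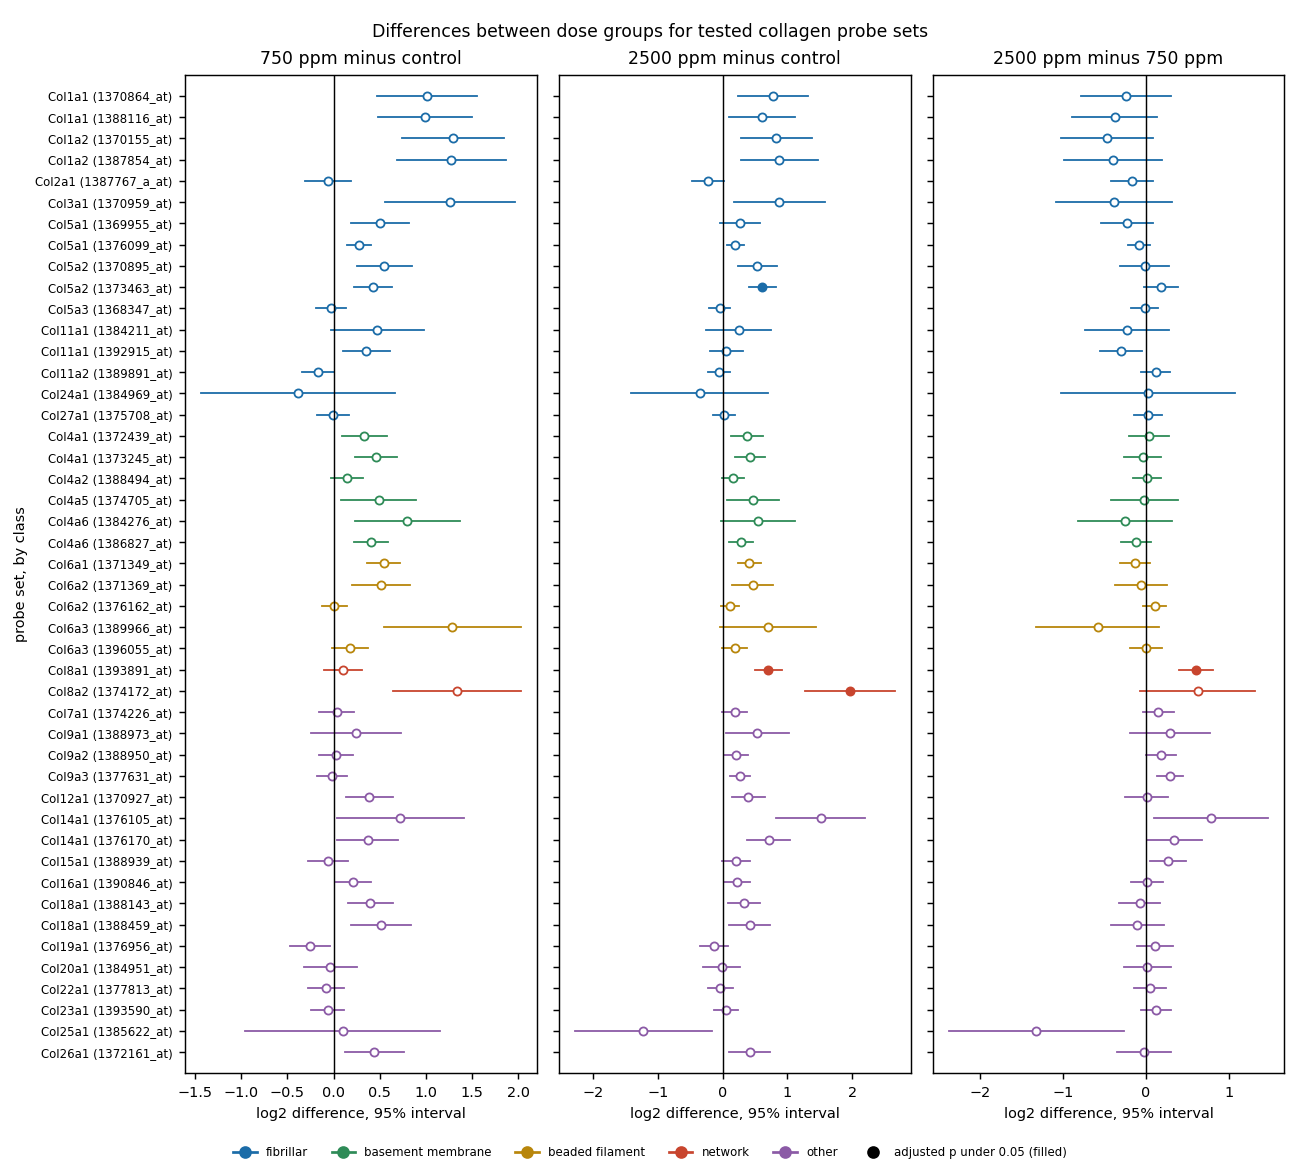
Log2 difference with its 95% interval for each tested collagen probe set in 3 panels (750 ppm against control, 2500 ppm against control, 2500 against 750 ppm), by class; filled points have an adjusted p under 0.05. The filled points are Col8a1, Col8a2 and Col5a2 in the middle panel and Col8a1 in the last.

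Among the other collagens, both probe sets of Col14a1, a fibril-associated collagen of developing connective tissue, were higher at 2500 ppm. Probe set 1376105_at read 6.92, 7.53 and 6.16 in controls, 7.39, 7.39 and 7.99 at 750 ppm, and 8.58, 8.20 and 8.37 at 2500 ppm. Probe set 1376170_at read 6.82, 7.05 and 6.97, then 7.10, 7.20 and 7.65, then 7.87, 7.55 and 7.56. The 2500 ppm arrays lay above all controls in both. The differences were 1.51 (SE 0.31, adjusted p = 0.0634 by limma) and 0.71 (SE 0.15, 0.0691), both just over the threshold. Each passed in 1 of the 9 fits that left out 1 array, without 750 ppm replicate 3 (0.0394 and 0.0177). That array enters this comparison only through the shared estimate of the spread, and without it 2.14% of all tested probe sets were called. In other fits the adjusted p reached 0.196 and 0.202. At 750 ppm the differences from control were 0.72 and 0.37.

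Col25a1, a transmembrane collagen made by neurons, was the 1 collagen lower at 2500 ppm with an unadjusted p under 0.05. It read 8.76, 8.50 and 8.42 in controls, 9.43, 9.26 and 7.29 at 750 ppm, and 7.09, 7.57 and 7.34 at 2500 ppm. The 2500 ppm arrays were below all controls, and 750 ppm replicate 3 lay among them. The difference was -1.22 (SE 0.47, 2.34-fold lower, adjusted p = 0.244 by limma) against control and -1.32 (0.304) against 750 ppm. Both passed in 1 of the 9 fits that left out 1 array, without 750 ppm replicate 3, at adjusted p of 0.00772 for -1.22 and 0.000978 for -2.01. In that fit 2.14% and 3.36% of all tested probe sets were called. In other fits the adjusted p reached 0.491 and 0.681. A list of 9 striatal neuron markers on the array moved the same way. Its level was 0.71, 0.24 and 0.43 in controls, 0.43, 0.34 and -0.74 at 750 ppm, and -0.85, -0.031 and -0.52 at 2500 ppm. This list had 0 of 9 markers higher at 2500 ppm than in controls, where 56.4% of all probe sets were. Its part in the Col25a1 difference was not tested.

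The 3 chains of type IX collagen, a cartilage and ocular fibril-associated type, were higher at 2500 ppm. Col9a3 read 10.05, 9.87 and 9.89, then 9.87, 9.93 and 9.95, then 10.11, 10.27 and 10.24, with differences of 0.27 (adjusted p = 0.119) against control and 0.29 (0.154) against 750 ppm. Col9a1 differed by 0.54 (0.265) and Col9a2 by 0.21 against control. Col12a1, Col16a1 and Col18a1, of fibril surfaces and vessel basement membranes, and Col26a1 were 0.22 to 0.42 higher at 2500 ppm in their tested probe sets. At 750 ppm these probe sets were 0.21 to 0.52 higher. All had unadjusted p under 0.05 by limma at both doses, and none passed the adjusted test. Col19a1 was the 1 collagen lower at 750 ppm with an unadjusted p under 0.05 (-0.25, adjusted p = 0.425). Col13a1, a transmembrane collagen under the filter, read 5.82, 5.38 and 4.52 in controls, 6.26, 5.92 and 6.09 at 750 ppm, and 6.06, 5.94 and 6.29 at 2500 ppm. Its dosed arrays lay above all controls, and with no filter limma gave adjusted p of 0.183 at 2500 ppm and 0.355 at 750 ppm. Col7a1, the anchoring fibril collagen of skin, differed by 0.18 at 2500 ppm (adjusted p = 0.323). Col17a1, of skin hemidesmosomes, read 4.43 to 4.59, and the untested probe sets of Col12a1 and Col15a1 read 5.34 to 6.24. The tested Col15a1 probe set, of a vessel basement membrane collagen, was higher in every 2500 ppm array than in every 750 ppm array (0.27, unadjusted p = 0.0213, adjusted p = 0.313 by limma). Col20a1, Col22a1 and Col23a1 had differences within 0.12 of 0 in all comparisons.

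Genes that make and cut collagen were described by lists. Of 20 synthesis and processing genes on the array (19 tested), 17 were above 0 at 2500 ppm (median 0.16) and 19 at 750 ppm (0.18). Of all probe sets, 56.4% and 48.7% were above 0. Of the 19 tested, 0 passed the adjusted test. Before adjustment, 7 were higher and 1 lower at p under 0.05 by limma at each dose. Among all tested probe sets, 6.89% were higher and 9.12% lower at 2500 ppm by that rule, and 5.77% and 4.37% at 750 ppm. Pcolce, which speeds removal of the fibrillar propeptide, differed by 0.62 (adjusted p = 0.0839 by limma) and 0.76 (0.201). Loxl1 differed by 0.37 (0.153) and 0.20 (0.562), and Serpinh1, the collagen chaperone, by 0.68 (0.252) and 0.83 (0.326). The lower gene was Colgalt2 at 2500 ppm (-0.25, 0.255) and P4ha3 at 750 ppm (-0.27, 0.260). Colgalt2 was also lower at 2500 than at 750 ppm (-0.43, 0.122). Of 7 receptor genes (6 tested), 4 were above 0 at 2500 ppm, near the share of all probe sets, and 5 at 750 ppm. Of the 6 tested, 0 passed, with 1 and 2 higher before adjustment. Ddr2, a fibrillar collagen receptor kinase, differed by 0.74 (0.0772) and 0.80 (0.201).

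Of 13 breakdown genes (10 tested), 10 were above 0 at 2500 ppm and 8 at 750 ppm, where 56.4% and 48.7% of all probe sets were. Before adjustment, 3 were higher and 1 lower at p under 0.05 by limma at each dose. Mmp2, a gelatinase, passed at 2500 ppm (0.96, SE 0.12, adjusted p = 0.0185 by limma), where 0.281% of all tested probe sets rose. Timp1, an inhibitor of such proteases, differed by 0.46 (0.0592), and Ctsk, a collagen-cleaving cathepsin, by 0.64 (0.153). Mmp2 differed by 0.49 (0.218) at 750 ppm.

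**Figure D4:**
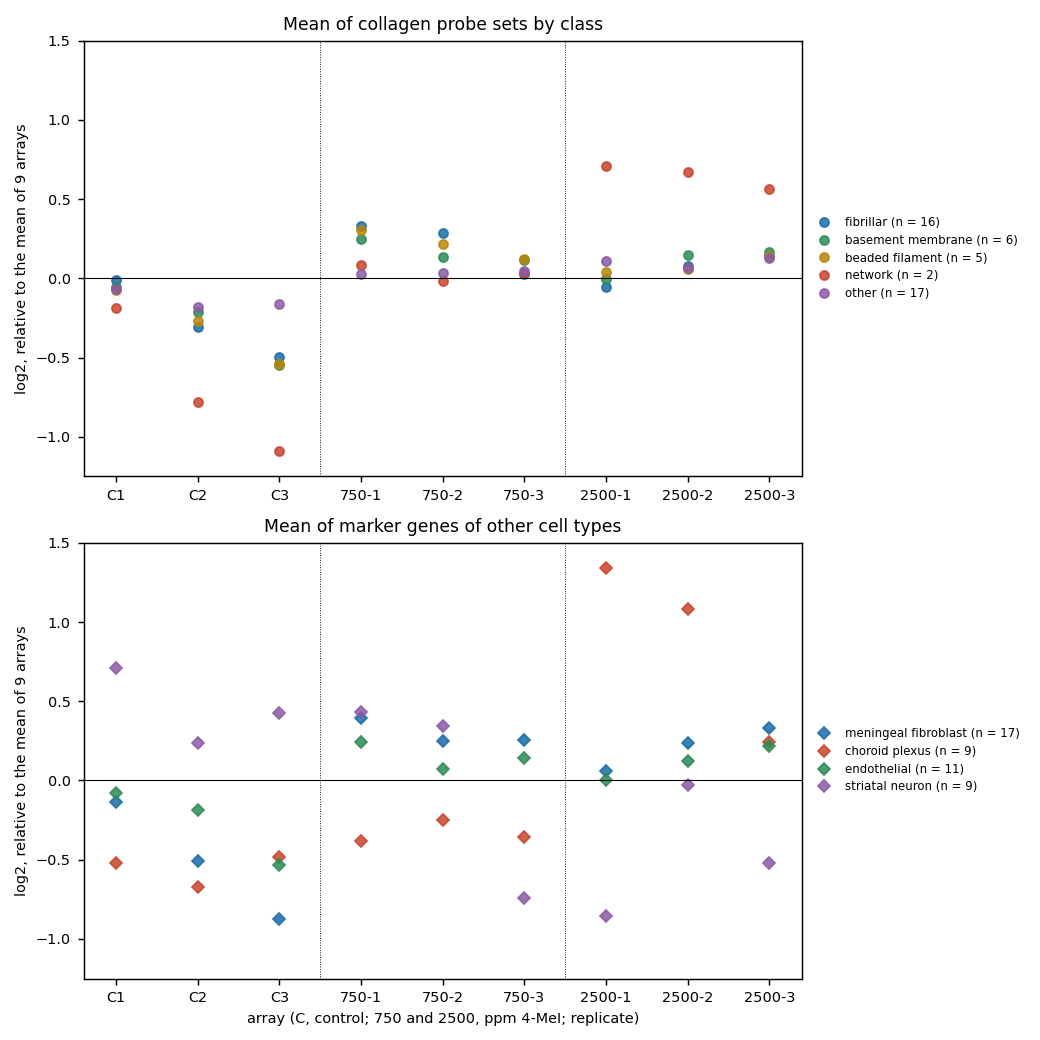
Mean of each collagen class in each array (top) and of 4 marker lists (bottom), in log2 units from the mean of all 9 arrays, with controls, 750 ppm and 2500 ppm from left to right. Meningeal and endothelial markers are low in controls along with most collagen classes, while choroid plexus markers are high only at 2500 ppm and striatal markers are low there and in 750 ppm replicate 3.

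Marker lists of several cell types were also higher in dosed pups, by differing amounts. Of all probe sets, 56.4% were higher at 2500 ppm and 48.7% at 750 ppm. At 2500 ppm, 0.281% of those tested passed as higher. Of 17 meningeal fibroblast markers, 16 were higher at each dose (median 0.85 at 2500 ppm, 0.77 at 750 ppm), and 4 passed at 2500 ppm (Slc47a1, Aldh1a2, Fmod and Cyp1b1). Of 11 endothelial markers, 11 were higher at each dose (medians 0.36 and 0.47), with ranges of -0.54 to -0.076 in controls, 0.074 to 0.25 at 750 ppm and 0.0017 to 0.22 at 2500 ppm. Of the 9 choroid plexus markers, 8 were higher at 2500 ppm (median 0.56) and 5 at 750 ppm (0.025). Ttr, the transthyretin of choroid plexus, passed at 2500 ppm (5.67, adjusted p = 0.0135). Of 10 pericyte and smooth muscle markers, 8 were higher and 2 lower at 2500 ppm (median 0.14), and 6 higher and 4 lower at 750 ppm (0.10). The mean of these 10 ran from -0.24 to -0.024 in controls, 0.024 to 0.037 at 750 ppm and 0.048 to 0.12 at 2500 ppm. The part of these marker lists in the collagen differences was not tested. How much meningeal, vascular or choroid tissue was in each dissection cannot be told apart from a change per cell.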

How the data were processed

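The authors deposited log2 intensities for each probe set of the Affymetrix whole-genome rat array. Per the submitters' processing notes, RMA from the affy package was used, with no version given in the sources used here. Values were taken as deposited and no intensity was recomputed. The precision rests on 3 arrays a group, and an exact permutation test of 3 against 3 cannot go below p = 0.1, so tests used limma (version 3.58.1, R 4.3.3) over all 9 arrays with 1 mean per group and Benjamini-Hochberg adjustment at 0.05. Control probe sets (57) were left out, and then the 30% of probe sets with the lowest mean (9313, under 6.35), which left 21729. Changes are log2 differences of group means. Probe sets were named through the platform annotation, and all 58 members carry the same symbol in RefSeq GRCr8, which also supplied the sequences. Members and lists were chosen with earlier results of these data known, so lists are described by counts and medians with no test. Named genes are those past the threshold, the 12 lowest p-values, the trimers of types I, III, IV and VI, and up to 4 of each pathway list; others named were chosen after their values were seen. Tested on simulated data for 2500 ppm against control over 21729 probe sets, the fit called 94 of 100 changed 2-fold, 71 of 100 changed 1.5-fold and 10 that were unchanged. The simulated noise was independent between probe sets, unlike the joint spread of the control arrays described above. These counts therefore do not give the power of the tests in the real data. Alternatives were the filter, centring, normalization, a replicate block, trend, array weights, the groups fitted, 1 probe set per gene, the threshold and leaving out each array.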

Additional observations from a re-analysis of the deposited data

Results flagged for a closer look

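Col8a1 was picked out because its level differed between the 2 doses in a test of the difference itself. The 2500 ppm group was 0.61 log2 units above the 750 ppm group (limma, adjusted p = 0.0373, higher in 3 of 3 arrays), while the 750 ppm group differed from control by 0.10 (adjusted p = 0.710). The call between doses was lost under a replicate block (adjusted p = 0.0665) and in a fit of the 2 groups alone (0.0591).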

How the results depend on the processing

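No result past the threshold changed sign under any alternative run. The median between doses, near 0 at -0.0037, did change sign, at 0.013 with no filter, 0.0082 with median-centred arrays, 0.0048 with a second quantile normalization, 0.016 with 1 probe set per gene, and -0.033 to 0.022 with 1 array left out. Shares in brackets are those of all tested probe sets called under the same setting. The collagen probe sets called at 2500 ppm against control numbered 3 (0.686%), and 0 to 7 with 1 array left out (7 without control replicate 1, 0.649%, and 7 without 750 ppm replicate 3, 2.14%). Array weights gave 10 (6.88%), the 2 groups alone 5 (2.21%), an adjusted threshold of 0.10 gave 8 (2.69%), and a rule of 1.5-fold change plus p under 0.05 before adjustment gave 11 (2.07%). At 750 ppm the count was 0, and 0 to 6 with 1 array left out (6 without control replicate 1, 0.202%), 5 with array weights (1.56%) and 9 by the fold rule (1.07%). Between doses it was 1, and 0 to 3 with 1 array left out (3 without 750 ppm replicate 3, 3.36%), 0 with the dimmer 50% left out (Col8a1 was then untested), 0 for the 2 groups alone, 4 with array weights (3.32%) and 3 by the fold rule (1.17%). Without control replicate 3 and 750 ppm replicate 3 together, chosen after seeing the data, the counts were 6 (1.21%), 1 (0.327%) and 8 (5.29%). The median over tested collagen probe sets at 2500 ppm (0.30) was 0.41 with the dimmer 50% left out and 0.20 with array weights. At 750 ppm (0.36) it was 0.22 with no filter, 0.24 with array weights, 0.24 with 1 probe set per gene, and 0.25 to 0.42 with 1 array left out. With the replicate number as a block, 2 were called at 2500 ppm (Col5a2 was lost, adjusted p = 0.0632), 0 at 750 ppm and 0 between doses. The samples share only a number: correlations of same-numbered deviations ran from -0.21 to 0.31. The causes were not tested. Probe sets near background have little signal to show a change.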
